A study of Drosophila melanogaster with 6 samples.

Results

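HttQ138, an mRFP-tagged huntingtin with an expanded polyglutamine stretch that forms protein aggregates, was expressed in escargot-positive cells of the fly midgut together with a knockdown construct against the transcription factor CncC, and its effect on RNA levels was measured against cells that carried the knockdown construct alone. The library of esgGal4ts > CncCRNAi and HttQ138 cells (CncCRNAi+HttQ138) was set against the library of esgGal4ts > CncCRNAi cells (CncCRNAi). For orientation, the pair without the knockdown, esgGal4ts > HttQ138 against w1118 (esgGal4ts > +), is given beside it. All 4 genotypes came from 7-day-old female flies shifted to 29 °C for 2 days, which inactivates the temperature-sensitive Gal80 and lets the driver act, and about 100 guts were pooled for each sample before the GFP-positive cells were sorted. The Rpn3RNAi and attP2 libraries of the series were kept 4 days at 29 °C and show here the spread of a gene over the series. The attP2 library also serves as a further control without RNAi. Flies of both carried a chromosome marked with y, sc and v that the 4 genotypes above did not. The driver is active in both intestinal stem cells (ISCs) and enteroblasts (EBs), so that no library separates them. The CncCRNAi flies carried a y,w1118 chromosome from their construct line that the HttQ138 and w1118 flies did not, and this background cannot be told apart from the construct when the pairs are compared. Within each pair, only the HttQ138 flies carried the chromosome with the HttQ138 transgene. The background of that chromosome cannot be told apart from HttQ138.

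ISCs self-renew and give rise to EBs, which become absorptive enterocytes, and to enteroendocrine cells. CncC, the fly homologue of Nrf2, is held in the cytoplasm by Keap1 and, once released, works with the small Maf protein to turn on genes for glutathione metabolism, detoxification and protein turnover. Misfolded or aggregated proteins are met in the cytosol by the Hsp70, Hsp90 and small heat shock chaperones, and are removed by the proteasome and by autophagy. In the fly gut, ISC division is driven by ligands of the EGFR, JAK/STAT and FGF pathways that reach the cells from their neighbours.

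The members of the comparison are the protein-coding genes that reached 10 FPKM in at least 1 of the 2 libraries, without small RNA genes. FPKM are fragments per kilobase of gene scaled to the mapped fragments of the library, and levels of different genes can be compared on this scale because it is divided by gene length. Of 15603 genes listed, 13632 were protein-coding, and 5482 were members. Of these, 4848 reached 10 FPKM in both libraries, 164 in CncCRNAi+HttQ138 alone and 470 in CncCRNAi alone. A gene that is a member through 1 library alone is higher there by that choice, which favours a call in that direction. A gene is called raised where it was at least 3-fold higher in CncCRNAi+HttQ138 and reached 10 FPKM there, and lowered where the fold was the reverse and CncCRNAi had 10 FPKM or more. Log2 ratios were taken of FPKM + 1, which understates the change of low genes, and folds of the FPKM themselves.

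There was 1 library for each genotype, so no difference has a replicate check and no p-value is given. The 6 libraries held an estimated 2780000 to 3640000 fragments, with 3640000 in CncCRNAi+HttQ138 and 3440000 in CncCRNAi, and 1 fragment on a transcript of 1000 nt was worth 0.325 to 0.425 FPKM. The interval in parentheses after a fold is its exact 95% interval, which covers counting error only and not the variation between flies, sorts or libraries. Sorted cells numbered 37452 for CncCRNAi+HttQ138 and 34129 for CncCRNAi. In cells sorted in bulk, fewer cells of a type and less RNA per cell cannot be told apart, which holds for every gene below.

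The gene targeted by the knockdown was not lower in the libraries that carry its label. cnc (FBgn0262975), which encodes CncC, had 75.6 FPKM in CncCRNAi+HttQ138 and 64.4 FPKM in CncCRNAi, beside 60.7 FPKM in HttQ138 and 63.8 FPKM in w1118. Its ratio between the first pair was 1.17 (1.08 to 1.28), so the member most tied to the labels had a slightly higher value beside HttQ138. FPKM per gene sum all transcripts of cnc and do not single out the CncC form, and protein was not measured. Every direction drawn from the CncCRNAi labels below carries this limit. The HttQ138 transgene is not among the fly genes listed, so its expression was not measured.

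The sort was reflected in esg, the gene that marks these cells, at 310 FPKM in CncCRNAi+HttQ138, 287 FPKM in CncCRNAi, 315 FPKM in HttQ138 and 346 FPKM in w1118. Delta (Dl), the Notch ligand by which ISCs are told from EBs, was near the floor throughout, with 0.803 FPKM in CncCRNAi+HttQ138 and 1.29 FPKM in CncCRNAi, and at most 2.34 FPKM in any of the 6 libraries. The 12 hemocyte markers summed to 144 FPKM in CncCRNAi+HttQ138 and 124 FPKM in CncCRNAi, most of it from crq, a scavenger receptor, with 119 FPKM and 111 FPKM. The integrin gene ItgaPS4 of that list had 15.9 FPKM in CncCRNAi+HttQ138 and 7.91 FPKM in CncCRNAi, a ratio of 2.01 (1.55 to 2.63), while the defining genes Hml, NimC1 and eater reached at most 0.462 FPKM in any of the 4 libraries of 2 days. The part of hemocytes in the values below was not tested. Of the progenitor markers, esg was at a high level and Dl was not.

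Few genes passed the fold rule in either direction. Of the 5482 members, 28 were raised (0.511%) and 47 were lowered (0.857%), and 5256 (95.9%) lay within 2-fold. The whole distribution sat slightly below 0, with a median log2 ratio of -0.12, quartiles of -0.34 and 0.10, and a lower value in CncCRNAi+HttQ138 for 3481 members (63.5%). List medians are therefore also given relative to this median. Over all members with an interval, 13.4% had one above 1 and 30.5% one below 1. By counting error alone, 25 of the 28 raised genes had an interval above 1 and 13 an interval wholly above 3-fold, and 45 of the 47 lowered genes had an interval below 1 and 19 an interval wholly past 3-fold. Many of the calls were of low genes, since 15 raised genes stood between 10 and 20 FPKM in CncCRNAi+HttQ138 and 25 lowered genes between 10 and 20 FPKM in CncCRNAi. Together, the raised genes summed to 2018 FPKM in CncCRNAi+HttQ138 against 283 FPKM in CncCRNAi, and the lowered genes to 515 FPKM against 2588 FPKM. The raised genes were also short, with a median transcript length of 902 nt, against 1627 nt for the lowered genes and 1894 nt for all members.

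**Figure D1:**
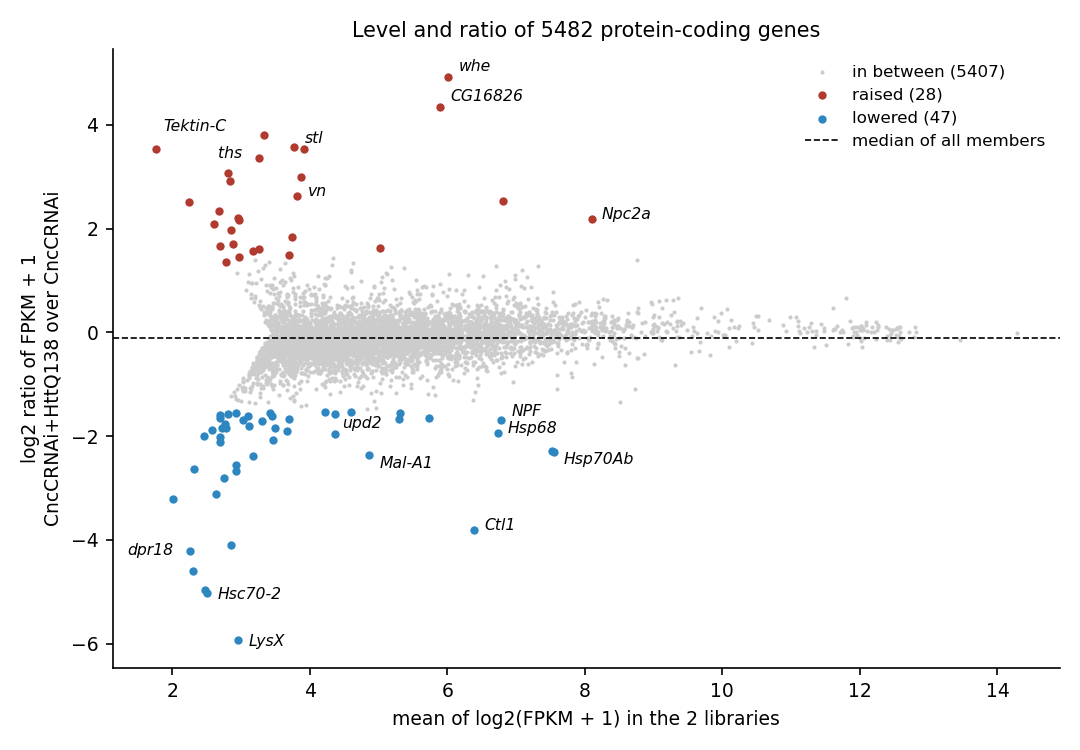
Log2 ratio of FPKM + 1 between CncCRNAi+HttQ138 and CncCRNAi (vertical axis) against the mean log2(FPKM + 1) of both libraries (horizontal axis) for each of the 5482 members, with the 28 raised genes in red, the 47 lowered genes in blue and a dashed line at the median of -0.12. Most of the coloured points lie at the left, among genes of low mean level, while the bulk of the members lies within 2-fold.

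Some of the raised genes reached high levels and were listed at 0 FPKM in w1118. A value of 0 FPKM says only that a gene is listed at 0, since RpL15, a ribosomal protein gene that every cell uses, is listed at 0 FPKM in all 6 libraries. whe (FBgn0031176) stood at 354 FPKM in CncCRNAi+HttQ138 and 10.8 FPKM in CncCRNAi, and at 175 FPKM in HttQ138 and 0 FPKM in w1118. That is a 32.9-fold rise (16.9 to 66.1) in the CncCRNAi background, on 332 and 10 estimated fragments. CG16826, a gene without a described role, stood at 267 FPKM in CncCRNAi+HttQ138 and 12.3 FPKM in CncCRNAi, a 21.7-fold rise (16.1 to 29.9). It had 186 FPKM in HttQ138 and 0 FPKM in w1118, so both HttQ138 libraries were high and both others low.

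lcs, whose gene lies next to whe on the same strand in the annotation, stood at 50.6 FPKM in CncCRNAi+HttQ138, 3.44 FPKM in CncCRNAi, 25.5 FPKM in HttQ138 and 0 FPKM in w1118, a 14.7-fold rise (6.23 to 47.9) in the CncCRNAi background. The uncharacterized CG34212 stood at 270 FPKM in CncCRNAi+HttQ138 and 45.7 FPKM in CncCRNAi, against 59.6 FPKM in HttQ138 and 0 FPKM in w1118. Its rise was 5.91-fold (3.91 to 9.52). CG43680 stood at 19.5 FPKM in CncCRNAi+HttQ138 on 14 estimated fragments and at 1.42 FPKM in CncCRNAi on 1, so that its 13.7-fold rise has an interval of 2.02 to 560. Acp98AB, an accessory gland gene by name, was listed at 10.6 FPKM in CncCRNAi+HttQ138 and at 0 FPKM in the 5 other libraries. With 175 nt it is too short for a count of its fragments, and no fold is given.

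A second set of raised genes encodes secreted signals and a matrix enzyme. stl (stall), a secreted metalloprotease of the ADAMTS family, stood at 46.1 FPKM in CncCRNAi+HttQ138 and 2.97 FPKM in CncCRNAi, against 56.1 FPKM in HttQ138 and 6.99 FPKM in w1118. It was 15.5-fold higher (11.5 to 22), and its 2 HttQ138 libraries were the highest of the 6. ths (thisbe), an FGF ligand of the receptor Heartless, stood at 29.9 FPKM in CncCRNAi+HttQ138 and 2.01 FPKM in CncCRNAi, against 28.7 FPKM in HttQ138 and 6.25 FPKM in w1118. This was a 14.9-fold rise (10.6 to 21.6), and the level reached was nearly equal with and without the CncCRNAi label. vn (vein), a neuregulin-like ligand of EGFR, stood at 34.1 FPKM in CncCRNAi+HttQ138 and 4.70 FPKM in CncCRNAi, a 7.25-fold rise (5.63 to 9.34). The same gene had 27.3 FPKM in HttQ138 and 5.47 FPKM in w1118.

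Npc2a, a lysosomal protein that binds sterols, was the raised gene of highest level. It stood at 584 FPKM in CncCRNAi+HttQ138 and 127 FPKM in CncCRNAi, a 4.58-fold rise (3.95 to 5.31), and at 893 FPKM in HttQ138 and 277 FPKM in w1118. CncCRNAi was the lowest and HttQ138 the highest of the 6 libraries for this gene. Its partner in the export of sterol from the lysosome, Npc1a, had 65.8 FPKM in CncCRNAi+HttQ138 and 74.9 FPKM in CncCRNAi.

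Among the 4 libraries of 2 days, some raised genes had a low value in CncCRNAi alone. Tektin-C, a protein of the microtubule doublets of flagella, stood at 36.7 FPKM in CncCRNAi+HttQ138 and 1.69 FPKM in CncCRNAi, a 21.7-fold rise (11.1 to 52.3), but at 44.9 FPKM in HttQ138 and 31.6 FPKM in w1118. Dscam4, an immunoglobulin family cell adhesion protein, stood at 11.5 FPKM in CncCRNAi+HttQ138, 1.95 FPKM in CncCRNAi, 10.8 FPKM in HttQ138 and 17.1 FPKM in w1118. In both genes CncCRNAi stood apart and the other 3 libraries of 2 days lay close together. Over the whole series this held for Dscam4, with 12.4 FPKM in Rpn3RNAi and 13.2 FPKM in attP2. Tektin-C was lower still in those libraries, with 0.262 FPKM in Rpn3RNAi and 0.408 FPKM in attP2. CncCRNAi was the lowest of the 4 libraries of 2 days in 14 of the 28 raised genes and in 12.1% of all members. The raised genes were chosen for a low value in CncCRNAi beside CncCRNAi+HttQ138, which favours this excess, so it is a description only. Of the 28, 4 were above 0 in CncCRNAi and at least 3-fold lower there than in w1118.

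The smaller rises included a pair of mitochondrial proteins. Sdhaf3, an assembly factor of succinate dehydrogenase, stood at 24.3 FPKM in CncCRNAi+HttQ138 and 6.04 FPKM in CncCRNAi, a 4.02-fold rise on only 28 and 7 estimated fragments (1.62 to 10.3). Ucp4B, a mitochondrial carrier, stood at 12.3 FPKM in CncCRNAi+HttQ138 and 3.09 FPKM in CncCRNAi, a 3.96-fold rise (1.84 to 9.17). PIG-M, the first mannosyltransferase of GPI anchor synthesis, stood at 10.5 FPKM in CncCRNAi+HttQ138 and 2.64 FPKM in CncCRNAi, a 3.97-fold rise (2.43 to 7.04). The other libraries of this gene had less than 1 fragment in HttQ138 and 5.86 FPKM in w1118.

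The raised genes were also set against the control libraries that carry no RNAi. They were chosen for a high value in CncCRNAi+HttQ138, which favours a high count here. The share over all members was not computed, so the counts are a description only. In 26 of the 28 the level in CncCRNAi+HttQ138 was above that in w1118, in 18 at least 3-fold, and in 12 at least 3-fold above both w1118 and attP2. Those 12 are whe, CG16826, lcs, Acp98AB, ths, CG43680, CG34212, CG33109, Ag5r, CG34263, Sdhaf3 and CG6733. Acp98AB is too short for a count of its fragments. CG34263 rested on 5 estimated fragments in CncCRNAi+HttQ138 and 1 in CncCRNAi, and its interval included 1 (0.530 to 224). The attP2 flies were of another background and were kept at 29 °C for longer, so only the w1118 values are of the same time.

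**Figure D2:**
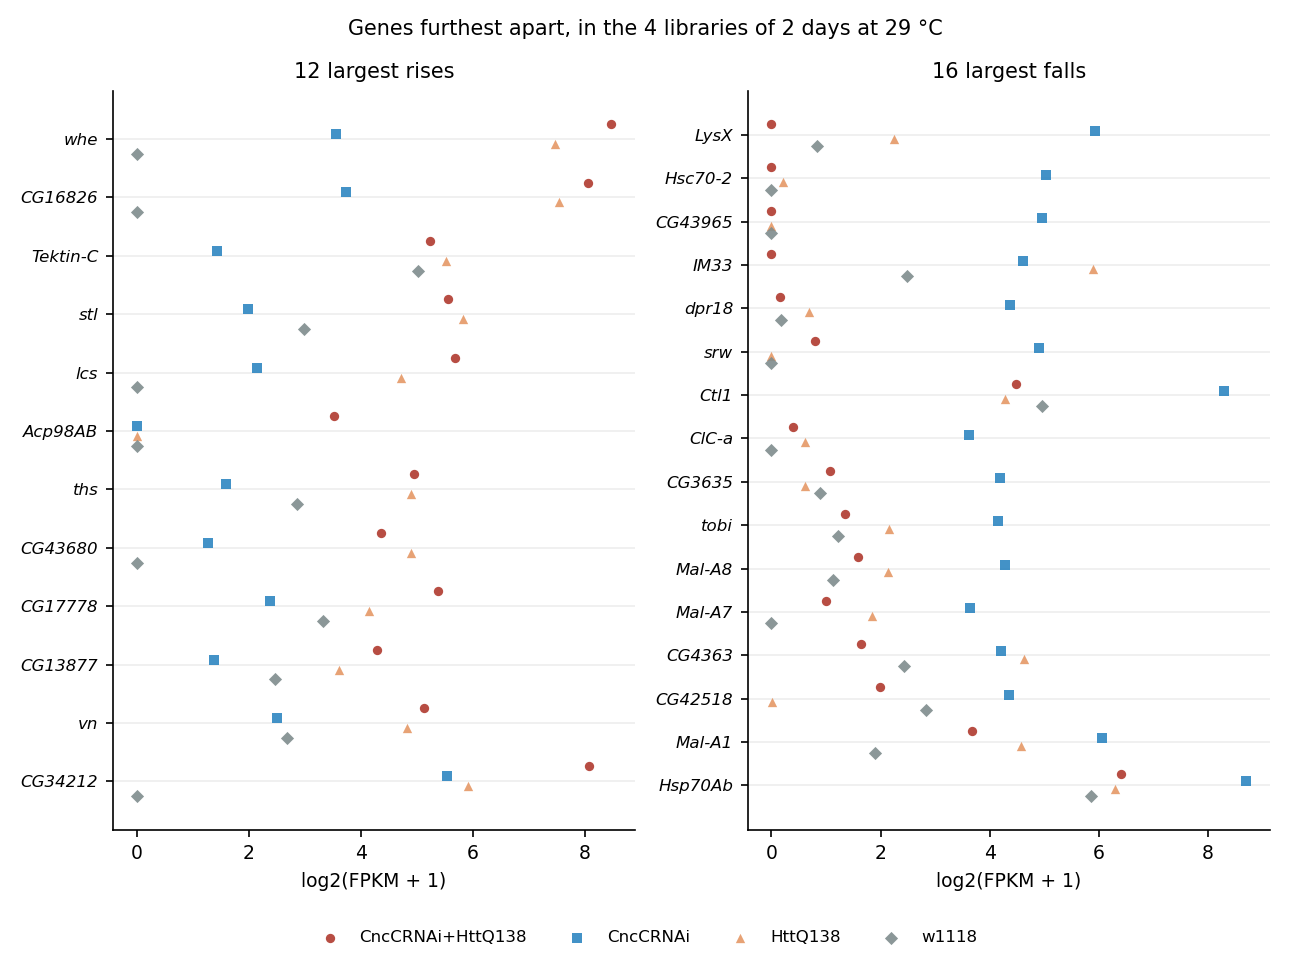
Log2(FPKM + 1) of the genes with the largest rises and falls between CncCRNAi+HttQ138 and CncCRNAi, in the 4 libraries of 2 days at 29 °C, with a symbol for each library. For whe, CG16826, lcs and CG43680 both HttQ138 libraries are high and w1118 is at 0 FPKM, while for LysX, Hsc70-2, dpr18, srw and Ctl1 the library labelled CncCRNAi is far above the other 3.

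The lowered genes were chosen for a high value in the library labelled CncCRNAi, and how the other libraries stood to it is given as a description. CncCRNAi was above the other 3 libraries of 2 days in 36 of the 47 lowered genes and above all 5 others in 29. Over all 5482 members it was above the other 3 in 41.6% and above all 5 others in 28.2%, so that it was often the highest library in general. It was above w1118 in 42 of the 47 and at least 3-fold above it in 31. Of the 43 lowered genes with a value above 0 in CncCRNAi+HttQ138, 28 lay within 3-fold of w1118 there, 7 lay at least 3-fold above it and 8 at least 3-fold below. Those 8 were kipf, Drat, CG11241, Tk, NPF, mira, CG7800 and CG9008.

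Several of the largest falls were of genes almost confined to CncCRNAi. IM33, also among the largest falls, was not, with 23.3 FPKM in CncCRNAi, 58.5 FPKM in HttQ138 and 66.4 FPKM in Rpn3RNAi. LysX, a lysozyme of the digestive tract, was listed at 0 FPKM in CncCRNAi+HttQ138 and at 59.7 FPKM in CncCRNAi, with 3.72 FPKM in HttQ138 and 0.784 FPKM in w1118. The lysozyme genes are close copies of each other, and how reads were divided among them is uncertain. Hsc70-2, a gene of the Hsp70 family, was listed at 0 FPKM in CncCRNAi+HttQ138 and 31.6 FPKM in CncCRNAi on 219 estimated fragments, and at most 0.151 FPKM in the 4 other libraries. No fold is given for genes listed at 0 on either side.

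Some other genes of large falls were also far higher in CncCRNAi than in the other libraries. Ctl1, a choline transporter-like membrane protein, stood at 21.5 FPKM in CncCRNAi+HttQ138 and 314 FPKM in CncCRNAi, 14.6-fold lower (12.6 to 17.1). Its values of 18.3 FPKM in HttQ138 and 30.0 FPKM in w1118 place CncCRNAi+HttQ138 among the other libraries and CncCRNAi far above them. dpr18, of the Dpr family of immunoglobulin proteins, stood at 0.111 FPKM in CncCRNAi+HttQ138 and 19.6 FPKM in CncCRNAi. srw (shrew), a homologue of the BMP-binding protein Tsg, stood at 0.748 FPKM in CncCRNAi+HttQ138 and 28.8 FPKM in CncCRNAi, and at 0 FPKM in the 4 other libraries. ClC-a, a chloride channel, stood at 0.317 FPKM in CncCRNAi+HttQ138 and 11.3 FPKM in CncCRNAi. None of these genes reached 2 FPKM in HttQ138 or w1118 except Ctl1.

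Maltase genes were among the lowered genes. Of 22 genes listed as digestive enzymes other than serine proteases, 8 were members, and 4 of these (LysX, Mal-A1, Mal-A7 and Mal-A8) were lowered and none raised, against 0.857% and 0.511% of all members. LysX, Mal-A7 and Mal-A8 reached 10 FPKM in CncCRNAi only, so they are members through the library where they are high. This favours both the count and the median of the list. The list had a median log2 ratio of -1.58, which is -1.46 relative to all members, and over its genes of at least 1 FPKM the median was -0.79. Mal-A1, a maltase of the midgut, stood at 11.8 FPKM in CncCRNAi+HttQ138 and 65.1 FPKM in CncCRNAi, 5.52-fold lower (4.27 to 7.18), against 22.7 FPKM in HttQ138 and 2.73 FPKM in w1118. Its neighbours in the maltase cluster went the same way. Mal-A8 stood at 2.01 FPKM in CncCRNAi+HttQ138 and 18.3 FPKM in CncCRNAi, 9.10-fold lower (5.08 to 18.5), and Mal-A7, the gene next to it, was 11.5-fold lower (5.45 to 26.8). tobi, an alpha-glucosidase outside the list that responds to diet, stood at 1.55 FPKM in CncCRNAi+HttQ138 and 16.7 FPKM in CncCRNAi, 10.8-fold lower (5.79 to 22.2). Over the whole series CncCRNAi was not the highest library for tobi or the maltases. Rpn3RNAi had 768 FPKM of Mal-A1, 175 FPKM of Mal-A8, 103 FPKM of Mal-A7 and 189 FPKM of tobi. The attP2 control lay between CncCRNAi+HttQ138 and CncCRNAi for each of them, with 43.5 FPKM of Mal-A1 and 11.8 FPKM of tobi. LysX differed, with 1.72 FPKM in Rpn3RNAi and 1.40 FPKM in attP2.

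Not all digestive enzymes moved in this way. The amylase gene Amy-p had 31.2 FPKM in CncCRNAi+HttQ138 and 33.8 FPKM in CncCRNAi, and Bace, a protease of the list, 89.9 FPKM and 114 FPKM in the same order. The secreted serine proteases of the gut leaned the other way. Of 30 genes 14 were members, with 1 raised and none lowered, against 0.511% and 0.857% of all members. An interval above 1 was seen for 10 of these proteases, against 13.4% of all members. Their median log2 ratio was 0.90, or 1.02 relative to all members. Jon74E, a Jonah protease, was the one called, at 12 FPKM in CncCRNAi+HttQ138 and 3.72 FPKM in CncCRNAi, a 3.21-fold rise on 33 and 10 estimated fragments (1.5 to 7.11). CG18180, another serine protease gene outside the list, stood at 56.2 FPKM in CncCRNAi+HttQ138 and 17.4 FPKM in CncCRNAi, a 3.23-fold rise (2.29 to 4.59). More typical was Jon65Aiv, with 184 FPKM in CncCRNAi+HttQ138 and 97.9 FPKM in CncCRNAi, a ratio of 1.88 (1.61 to 2.19). The trypsin gene alphaTry had 206 FPKM in CncCRNAi+HttQ138 and 242 FPKM in CncCRNAi, and Jon99Fi 6.80 FPKM and 13.6 FPKM in the same order. Several Jonah and trypsin genes are close copies, deltaTry and gammaTry among them, and their separate values are uncertain.

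Enterocytes make these enzymes, and the 12 enterocyte markers of the list summed to 458 FPKM in CncCRNAi+HttQ138, 502 FPKM in CncCRNAi, 392 FPKM in HttQ138 and 254 FPKM in w1118. Of their 5 members 3 had a higher and 2 a lower value, with none called. mesh, a septate junction protein, had 55.7 FPKM in CncCRNAi+HttQ138 and 87.1 FPKM in CncCRNAi, and the brush border myosin Myo31DF 163 FPKM and 159 FPKM in the same order. The enterocyte homeobox gene lab stood at 0.383 FPKM in CncCRNAi+HttQ138 and 0.886 FPKM in CncCRNAi. Fat body markers, made up mostly of yolk proteins, summed to 62.8 FPKM in CncCRNAi+HttQ138, 82.2 FPKM in CncCRNAi, 18.7 FPKM in HttQ138 and 33.9 FPKM in w1118, so that both libraries of the CncCRNAi label held more of them. The part of such cells in the enzyme values was not tested.

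Of the inducible Hsp70 genes, Hsp70Aa, Hsp70Ab and Hsp68 were lowered beside HttQ138 and the copies of the Hsp70B cluster were not. Of 20 genes for Hsp70, Hsp90 and their partners, 19 were members, with 4 lowered and none raised, against 0.857% and 0.511% of all members. A lower value was seen for 14, against 63.5% of all members, and an interval below 1 for 13, against 30.5%, at a median log2 ratio of -0.22 (-0.10 relative to all members). Hsp70Aa stood at 82.2 FPKM in CncCRNAi+HttQ138 and 404 FPKM in CncCRNAi, 4.91-fold lower (4.51 to 5.35), and Hsp70Ab at 83.3 FPKM and 413 FPKM, 4.96-fold lower (4.56 to 5.4). These neighbouring copies are nearly identical, so they count as a single observation. They had 76.3 and 77.0 FPKM in HttQ138 and 55.7 and 56.8 FPKM in w1118, so that CncCRNAi was again the library apart.

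The other Hsp70 cluster moved less. Hsp70Bbb had 60.6 FPKM in CncCRNAi+HttQ138 and 124 FPKM in CncCRNAi, while Hsp70Bb, the copy of highest level, had 629 FPKM and 547 FPKM. How reads were shared among these copies is uncertain. Hsp68, an inducible Hsp70 with its own locus, was 3.87-fold lower (3.47 to 4.33), at 53.4 FPKM in CncCRNAi+HttQ138 and 207 FPKM in CncCRNAi. It had 27.1 FPKM in HttQ138 and 28.7 FPKM in w1118.

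Hsp83, the fly Hsp90, had 653 FPKM in CncCRNAi+HttQ138 and 847 FPKM in CncCRNAi, a ratio of 0.771 (0.746 to 0.797). The constitutive Hsc70-4 had 2559 FPKM in CncCRNAi+HttQ138 and 2371 FPKM in CncCRNAi. stv (starvin), a BAG co-chaperone that works with Hsc70-4, went against the group, with 116 FPKM in CncCRNAi+HttQ138 and 72.9 FPKM in CncCRNAi, a ratio of 1.59 (1.44 to 1.75). The heat shock factor itself, Hsf, had 34.1 FPKM in CncCRNAi+HttQ138 and 41.4 FPKM in CncCRNAi.

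Small heat shock proteins, which hold unfolded proteins in solution, had 5 members of 11 genes. None was called, and 4 had an interval below 1, against 30.5% of all members. The median log2 ratio was -0.62 (-0.51 relative to all members). Hsp23 stood at 291 FPKM in CncCRNAi+HttQ138 and 616 FPKM in CncCRNAi, a ratio of 0.471 (0.431 to 0.515), and at 111 FPKM in HttQ138 and 90.8 FPKM in w1118. Hsp26 stood at 308 FPKM in CncCRNAi+HttQ138 and 475 FPKM in CncCRNAi, against 92.6 FPKM in HttQ138 and 70.5 FPKM in w1118. Both genes were further above w1118 in CncCRNAi+HttQ138 than Hsp70Aa and Hsp70Ab were. CG14207 alone had an interval above 1, at 124 FPKM in CncCRNAi+HttQ138 and 80.3 FPKM in CncCRNAi. Over both chaperone lists, CncCRNAi was above all 5 other libraries in 15 of 24 members, against 28.2% of all members. The TRiC chaperonin, which folds actin and tubulin, had a higher value in 7 of its 8 members and a lower one in 1. Over all members 63.5% were lower. Its median log2 ratio was 0.06 (0.18 relative to all members).

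**Figure D3:**
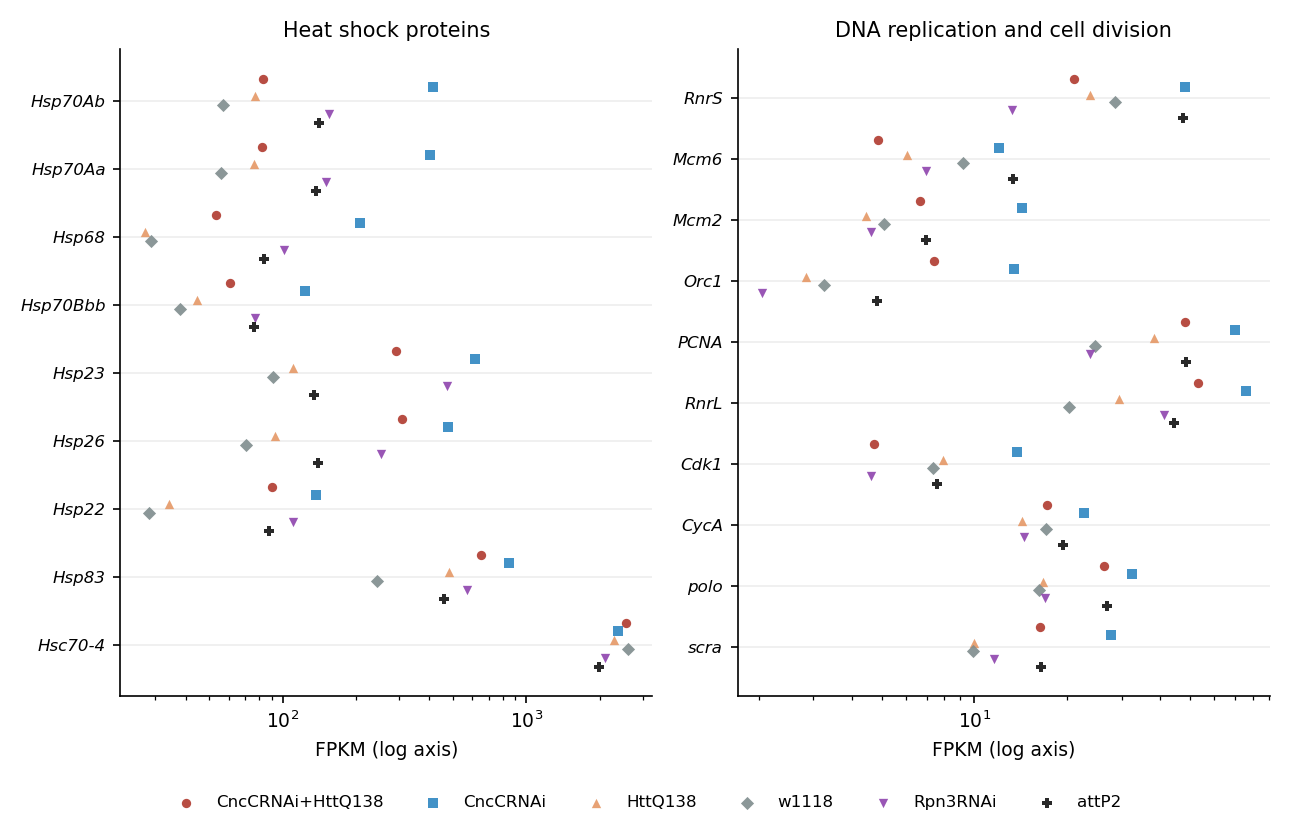
FPKM on a log axis in each of the 6 libraries for heat shock genes and for genes of DNA replication and cell division, 1 point per library and gene. For Hsp70Aa, Hsp70Ab and Hsp68 the CncCRNAi library is highest at 404, 413 and 207 FPKM, and for Cdk1 it stands at 13.7 FPKM against 4.73 FPKM in CncCRNAi+HttQ138.

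Peptide genes of enteroendocrine cells were among the lowered genes. Tk, the precursor of the tachykinins, stood at 2.66 FPKM in CncCRNAi+HttQ138 and 12.1 FPKM in CncCRNAi, 4.54-fold lower (2.5 to 8.77), and at 14.8 FPKM in HttQ138 and 25.2 FPKM in w1118. NPF, neuropeptide F, stood at 60.3 FPKM in CncCRNAi+HttQ138 and 198 FPKM in CncCRNAi, 3.28-fold lower (2.57 to 4.22), and at 167 FPKM in HttQ138 and 396 FPKM in w1118. For both peptides the HttQ138 library of each pair was the lower one, and for NPF CncCRNAi+HttQ138 was the lowest of the 6 libraries. The attP2 control, which carries no HttQ138, had similar levels, with 72.6 FPKM of NPF and 2.33 FPKM of Tk. For Tk attP2 was the lowest of the 6 libraries. Tk reached 10 FPKM in CncCRNAi and not in CncCRNAi+HttQ138, so it was a member through CncCRNAi only. Orcokinin, the other member of the list, had 19.9 FPKM in CncCRNAi+HttQ138 and 32.6 FPKM in CncCRNAi, but 86.0 FPKM in HttQ138 and 56.8 FPKM in w1118.

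The enteroendocrine list had 2 of 3 members lowered, against 0.857% of all members, and a median log2 ratio of -1.70 over these 3. Over its genes of at least 1 FPKM the median was -0.43. Its 17 genes summed to 105 FPKM in CncCRNAi+HttQ138, 268 FPKM in CncCRNAi, 383 FPKM in HttQ138 and 524 FPKM in w1118. The sum was 156 FPKM in attP2 and 273 FPKM in Rpn3RNAi. The transcription factor pros, which defines enteroendocrine cells, stood at 0.335 FPKM in CncCRNAi+HttQ138 and 0.841 FPKM in CncCRNAi. IA-2, a protein of secretory granules, had 2.31 FPKM in CncCRNAi+HttQ138 and 4.08 FPKM in CncCRNAi.

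Among the ligands that act on ISCs, the calls went in both directions. Of 24 growth factor and cytokine genes 9 were members, with ths and vn raised and upd2 lowered, against 0.511% raised and 0.857% lowered of all members. upd2, a cytokine of the JAK/STAT pathway, stood at 21.0 FPKM in CncCRNAi+HttQ138 and 69.2 FPKM in CncCRNAi, 3.30-fold lower (2.73 to 4.03). With 4.78 FPKM in HttQ138 and 8.68 FPKM in w1118, both libraries of the CncCRNAi label were the highest of the 6. upd3, the related cytokine induced by gut damage, had 73.5 FPKM in CncCRNAi+HttQ138 and 111 FPKM in CncCRNAi, and 33.0 FPKM in HttQ138 and 16.8 FPKM in w1118. spi, an EGFR ligand, had 84.3 FPKM in CncCRNAi+HttQ138 and 103 FPKM in CncCRNAi, and Krn, another, 39.6 FPKM and 33.2 FPKM.

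The receptors and feedback genes of these pathways were lower almost without exception, though none by 3-fold. Of 20 genes 15 were members, 14 had a lower value, against 63.5% of all members, and 13 an interval below 1, against 30.5%, at a median log2 ratio of -0.49 (-0.38 relative to all members). InR, the insulin receptor, had 15 FPKM in CncCRNAi+HttQ138 and 25.3 FPKM in CncCRNAi. Egfr had 24.4 FPKM in CncCRNAi+HttQ138 and 38.8 FPKM in CncCRNAi, a ratio of 0.628 (0.560 to 0.703), and 39.9 FPKM in HttQ138 and 84.2 FPKM in w1118. Its inhibitor sty (sprouty) had 29.7 FPKM in CncCRNAi+HttQ138 and 46.7 FPKM in CncCRNAi. Socs36E, a target and brake of JAK/STAT, had 86.6 FPKM in CncCRNAi+HttQ138 and 126 FPKM in CncCRNAi. The exception was btl, an FGF receptor, with 12.1 FPKM in CncCRNAi+HttQ138 and 11.0 FPKM in CncCRNAi.

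Of the progenitor genes, mira was the only one called. mira (miranda), an adaptor that carries cell fate determinants in asymmetric division, stood at 28.9 FPKM in CncCRNAi+HttQ138 and 93.2 FPKM in CncCRNAi, 3.23-fold lower (2.83 to 3.69). It stood at 42.1 FPKM in HttQ138 and 126 FPKM in w1118, so that the HttQ138 library was the lower one in both pairs. zfh2, a zinc finger homeodomain factor, had 28.3 FPKM in CncCRNAi+HttQ138 and 52.2 FPKM in CncCRNAi, and 22.8 FPKM in HttQ138 and 47.5 FPKM in w1118. Of the 10 members 8 had a lower value, against 63.5% of all members, with a median log2 ratio of -0.45 (-0.33 relative to all members). Besides esg, the exception was Sox21a, a factor that drives EB differentiation, with 166 FPKM in CncCRNAi+HttQ138 and 116 FPKM in CncCRNAi, a ratio of 1.43 (1.31 to 1.56).

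In the Notch pathway, which sets the EB fate, E(spl)malpha-BFM stood at 227 FPKM in CncCRNAi+HttQ138 and 580 FPKM in CncCRNAi, a ratio of 0.391 (0.349 to 0.438). It stood at 428 FPKM in HttQ138 and 824 FPKM in w1118. E(spl)mbeta-HLH, another Notch target, had 778 FPKM in CncCRNAi+HttQ138 and 1051 FPKM in CncCRNAi. Of the 7 members 5 had a lower value, against 63.5% of all members, and none was called.

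Genes of DNA replication and the cell cycle were lower in every member, though no gene reached 3-fold. All 10 replication members and all 14 cell cycle members had a lower value in CncCRNAi+HttQ138, against 63.5% of all members, and 18 of these 24 had an interval below 1, against 30.5% of all members. The median log2 ratio was -0.57 for replication (-0.45 relative to all members) and -0.42 for the cell cycle (-0.30 relative to all members). Cdk1, the mitotic kinase, came nearest to the fold rule, with 4.73 FPKM in CncCRNAi+HttQ138 and 13.7 FPKM in CncCRNAi, 2.90-fold lower on 16 and 44 estimated fragments (1.61 to 5.52). RnrS, the small subunit of ribonucleotide reductase, stood at 21.0 FPKM in CncCRNAi+HttQ138 and 48.1 FPKM in CncCRNAi, a ratio of 0.436 (0.346 to 0.551). Mcm6, of the replicative helicase, stood at 4.89 FPKM in CncCRNAi+HttQ138 and 12 FPKM in CncCRNAi, a ratio of 0.406 (0.284 to 0.580).

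These genes were again highest in CncCRNAi, which stood above the other 3 libraries of 2 days in 21 of the 24, against 41.6% of all members. Set against w1118, the level in CncCRNAi+HttQ138 was higher in 13 and lower in 11. Without the CncCRNAi label, 16 of the 24 had a lower value in HttQ138 than in w1118. The median log2 ratios there were -0.15 for replication and -0.23 for the cell cycle, against -0.08 for all members. PCNA went the other way in that pair. It had 48.1 FPKM in CncCRNAi+HttQ138 and 70.0 FPKM in CncCRNAi, and 38.4 FPKM in HttQ138 and 24.6 FPKM in w1118. dap (dacapo), the fly p21/p27 inhibitor of Cyclin E and Cdk2, had lower values as well. It had 13.8 FPKM in CncCRNAi+HttQ138 and 27.2 FPKM in CncCRNAi, a ratio of 0.507 (0.403 to 0.637), and 14.4 FPKM in HttQ138 and 30.5 FPKM in w1118, so that it was lower in the HttQ138 library of both pairs.

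The genes of the CncC pathway itself showed no call. Of 20 genes 18 were members, and 5 of these had a lower value, against 63.5% of all members, and 13 a higher one. An interval above 1 was seen for 6, against 13.4% of all members, and one below 1 for 2, against 30.5%. The median log2 ratio was 0.11 (0.22 relative to all members). Gtpx, a glutathione peroxidase, had 385 FPKM in CncCRNAi+HttQ138 and 245 FPKM in CncCRNAi, a ratio of 1.57 (1.43 to 1.73). Gclc, the catalytic subunit of the first enzyme of glutathione synthesis, had 48.3 FPKM in CncCRNAi+HttQ138 and 58.9 FPKM in CncCRNAi, a ratio of 0.819 (0.732 to 0.915). Keap1, the inhibitor of CncC, had 20.3 FPKM in CncCRNAi+HttQ138 and 23.1 FPKM in CncCRNAi, and its ratio of 0.881 had an interval that included 1 (0.722 to 1.07). The small Maf partner maf-S had 23.4 FPKM in CncCRNAi+HttQ138 and 34.1 FPKM in CncCRNAi, with an interval that also included 1 (0.444 to 1.04).

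The glutathione S-transferases divided. Of 35 genes 25 were members and none was called. A higher value was seen for 12 and a lower one for 13, against 63.5% of all members lower. The median log2 ratio was -0.01 (0.11 relative to all members). GstD2 had the largest ratio of the list, with 704 FPKM in CncCRNAi+HttQ138 and 268 FPKM in CncCRNAi, a ratio of 2.63 (2.38 to 2.91), and 155 FPKM in HttQ138 and 98.0 FPKM in w1118. GstD1, the gene whose antioxidant response element is commonly used as a reporter of CncC, had 1249 FPKM in CncCRNAi+HttQ138 and 917 FPKM in CncCRNAi, a ratio of 1.36 (1.29 to 1.44). It had 723 FPKM in HttQ138 and 756 FPKM in w1118, a ratio of 0.955 whose interval included 1 (0.891 to 1.02). GstD3 had 242 FPKM in CncCRNAi+HttQ138 and 141 FPKM in CncCRNAi. At the other end, GstS1 had 114 FPKM in CncCRNAi+HttQ138 and 162 FPKM in CncCRNAi.

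Metal-binding proteins had higher values beside HttQ138. Of 13 genes for iron and other metals 7 were members. Of these 6 had a higher value and 1 a lower one, against 63.5% of all members lower. An interval above 1 was seen for 5, against 13.4% of all members. The median log2 ratio was 0.43 (0.55 relative to all members). MtnA, the main metallothionein, had 206 FPKM in CncCRNAi+HttQ138 and 88.8 FPKM in CncCRNAi, a ratio of 2.32 (1.85 to 2.93), and 354 FPKM in HttQ138 and 150 FPKM in w1118. MtnD, at 14.0 FPKM in CncCRNAi+HttQ138 and 4.67 FPKM in CncCRNAi, rested on 6 and 2 estimated fragments. The ferritin heavy chain Fer1HCH had 722 FPKM in CncCRNAi+HttQ138 and 547 FPKM in CncCRNAi, a ratio of 1.32 (1.25 to 1.40), and the light chain Fer2LCH 682 FPKM and 541 FPKM. MTF-1, the factor that turns metallothionein genes on, was the exception, with 24.3 FPKM in CncCRNAi+HttQ138 and 32.9 FPKM in CncCRNAi.

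Proteasome genes lay near 0 and slightly above the median of all members. All 14 subunits of the 20S proteasome were members. Of these 9 had a higher value and 5 a lower one, against 63.5% of all members lower. Their median log2 ratio was 0.07 (0.18 relative to all members). The 19 subunits of the 19S particle had a median of -0.02 (0.10 relative to all members), with 9 higher and 10 lower values. Rpn3, a subunit of its lid, had 33.1 FPKM in CncCRNAi+HttQ138 and 37.7 FPKM in CncCRNAi, a ratio of 0.877 (0.715 to 1.07). Without the CncCRNAi label it had 71.0 FPKM in HttQ138 and 45.5 FPKM in w1118, a ratio of 1.56 (1.32 to 1.85). The corresponding medians without the label were 0.53 for the 20S and 0.50 for the 19S subunits, against -0.08 for all members.

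Autophagy genes had a lower value in 14 of 19 members, a share near the 63.5% of all members, with 9 intervals below 1, 1 above it and a median log2 ratio of -0.24 (-0.13 relative to all members). Atg8a, the ubiquitin-like protein of the autophagosome, had 308 FPKM in CncCRNAi+HttQ138 and 423 FPKM in CncCRNAi, a ratio of 0.728 (0.672 to 0.788), and 289 FPKM in HttQ138 and 532 FPKM in w1118. Atg1, the kinase that starts the process, had 14.8 FPKM in CncCRNAi+HttQ138 and 23.3 FPKM in CncCRNAi, a ratio of 0.637 (0.530 to 0.768), and 12.9 FPKM in HttQ138 and 21.7 FPKM in w1118. Both genes were lower in the HttQ138 library of each pair. ref(2)P, the fly p62 that carries ubiquitinated cargo, had 280 FPKM in CncCRNAi+HttQ138 and 269 FPKM in CncCRNAi, with an interval of 0.980 to 1.11. In the lysosome list, cathD had 350 FPKM in CncCRNAi+HttQ138 and 249 FPKM in CncCRNAi, whereas Lamp1 had 185 FPKM and 245 FPKM.

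Genes for the unfolded protein response of the ER stayed near the median of all members, with 21 members of 21 genes, no call and a median log2 ratio of -0.07. Hsc70-3, its chaperone BiP, had 565 FPKM in CncCRNAi+HttQ138 and 458 FPKM in CncCRNAi, a ratio of 1.23 (1.19 to 1.28). PEK, a sensor of this response, had 36.6 FPKM in CncCRNAi+HttQ138 and 50.9 FPKM in CncCRNAi. In the JNK and stress list, 11 of 15 members had a lower value, against 63.5% of all members, and none was called. Its widest values were those of cbt (cabut), a zinc finger factor, with 51.7 FPKM in CncCRNAi+HttQ138 and 129 FPKM in CncCRNAi, and of the matrix metalloprotease Mmp1, a target of JNK, with 180 FPKM and 114 FPKM. All 11 members of the ecdysone and juvenile hormone list and all 14 of the glycolysis list had a lower value, against 63.5% of all members. Their medians were -0.26 and -0.08, the second of which is above the median of all members. The 83 cytosolic ribosomal proteins had a median of 0.03, with 54 higher and 29 lower values, against 63.5% of all members lower.

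**Figure D4:**
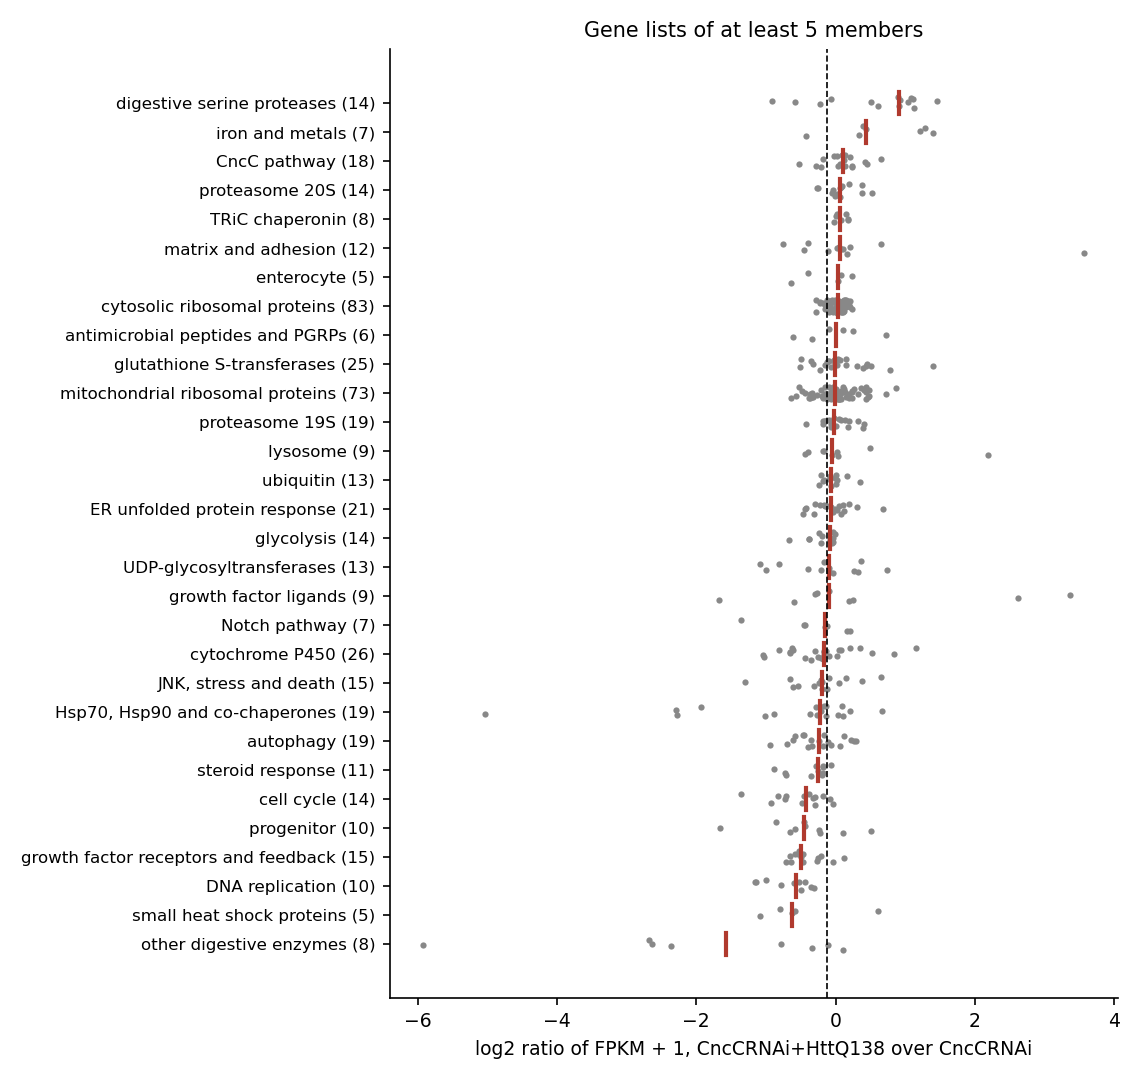
Log2 ratio of FPKM + 1 between CncCRNAi+HttQ138 and CncCRNAi for each member (points) of the gene lists with at least 5 members, with a red bar at the median of the list and a dashed line at the median of all members, -0.12. Digestive enzymes other than proteases reach furthest to the left, with a median of -1.58, serine proteases lie to the right at 0.90, and all points of the replication and cell cycle lists lie below 0.

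The effect of HttQ138 in the CncCRNAi background was then set beside its effect without the knockdown, over the same 5482 genes. These are separate pairs of libraries that share no sample. Between HttQ138 and w1118, 115 of these members were raised (2.1%) and 24 lowered (0.438%). Among these members, raised genes were fewer in the CncCRNAi background, 28 against 115, and lowered genes more, 47 against 24. The members were chosen by their level in the CncCRNAi pair alone. Protein-coding genes that reached 10 FPKM in HttQ138 or w1118 numbered 5345, and those that are not members were left out. The counts of the 2 pairs are therefore not on an equal footing. The difference was not tested, as each ratio rests on 1 library a side.

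Of the 28 genes raised in the CncCRNAi background, 15 (53.6%) were also among the 115 raised without it, of which they make up 13%. The 15 were whe, CG16826, stl, lcs, ths, CG43680, vn, CG34212, CG4250, Npc2a, Ag5r, CG34263, CG18180, Jon74E and CG6733. Of the 28, 24 had a higher value in HttQ138 than in w1118, and their median log2 ratio was 2.27 in the CncCRNAi background and 1.88 without it. Since the 28 were chosen on the first of these values, the second is the one that the choice did not use, and it stands against a median of -0.08 for all members without CncCRNAi.

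Of the 47 lowered genes 1 was also lowered without CncCRNAi, against 0.438% of all members. This was CG11241, with 4.97 FPKM in CncCRNAi+HttQ138 and 20.4 FPKM in CncCRNAi, and 7.48 FPKM in HttQ138 and 41.8 FPKM in w1118. The count depends on the thresholds. Without CncCRNAi, mira was 2.98-fold lower (2.66 to 3.35), just outside the rule. For kipf the fall there was 10.4-fold (3.54 to 38.1), but w1118 had only 6.89 FPKM, below the minimum. For these 47 the median log2 ratio was -1.90 in the CncCRNAi background, which chose them, and 0.08 without it, where 21 had a lower and 24 a higher value. Another 8 genes, lowered in the CncCRNAi background, were raised by HttQ138 without it. Mal-A1 is one of these, and IM33, an immune-induced peptide, another. IM33 was listed at 0 FPKM in CncCRNAi+HttQ138 and had 23.3 FPKM in CncCRNAi, and stood at 58.5 FPKM in HttQ138 and 4.56 FPKM in w1118. Damm, a caspase, had 3.05 FPKM in CncCRNAi+HttQ138 and 11.1 FPKM in CncCRNAi, but 18.5 FPKM in HttQ138 and 4.80 FPKM in w1118. No gene was raised in the CncCRNAi background and lowered without it.

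Over all 5482 genes the log2 ratios of the pairs had a Pearson correlation of 0.33 and a Spearman correlation of 0.38. Over the 4395 genes of at least 10 FPKM in all 4 libraries these were 0.43 and 0.42. They are given as a description across genes, which are not independent replicates.

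**Figure D5:**
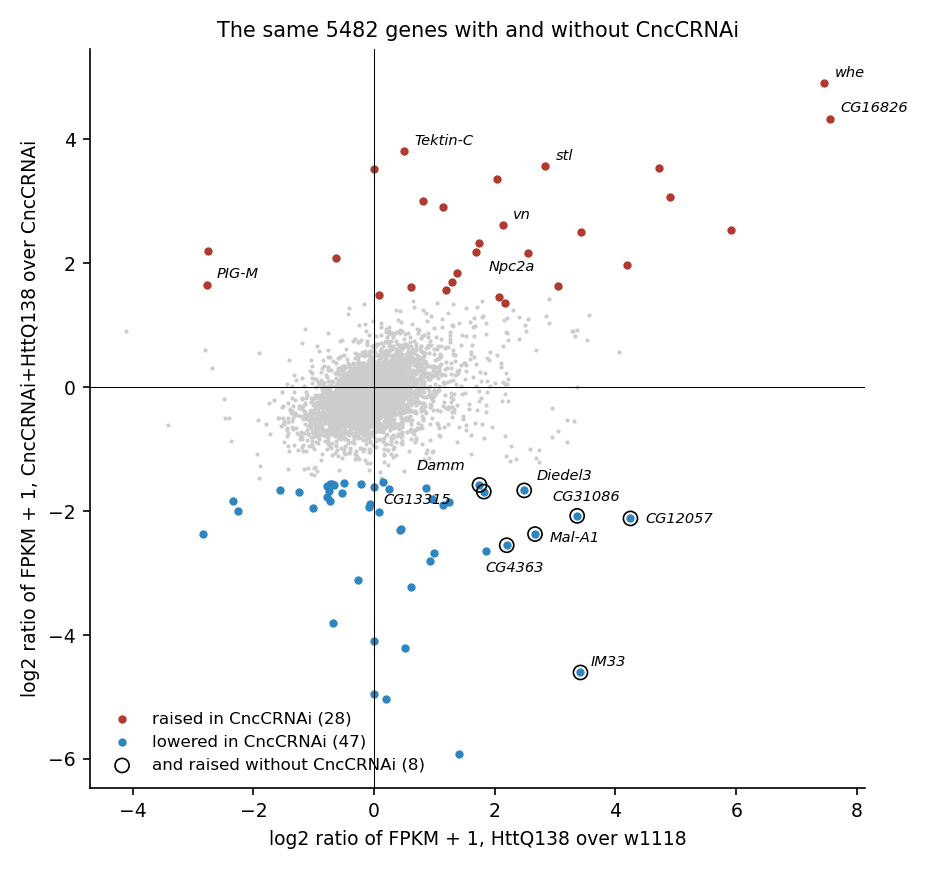
Log2 ratio between CncCRNAi+HttQ138 and CncCRNAi (vertical axis) against the log2 ratio between HttQ138 and w1118 (horizontal axis), both of FPKM + 1, for each of the 5482 members. Red points are the 28 genes raised and blue points the 47 lowered in the CncCRNAi background, and circles mark the 8 genes lowered there and raised without it, which lie at the lower right.

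The serine proteases showed the gap between the backgrounds in size. In the CncCRNAi background 1 of the 14 members was raised, against 0.511% of all members, and the median log2 ratio was 0.90. Without the CncCRNAi label 11 of the 14 were raised, against 2.1% of all members, and the median was 2.11. Jon65Aiv had 184 FPKM in CncCRNAi+HttQ138, 97.9 FPKM in CncCRNAi, 745 FPKM in HttQ138 and 129 FPKM in w1118, so that both higher values were those of HttQ138 libraries. For the other digestive enzymes the list median was -1.58 in the CncCRNAi background and 1.36 without it. The first of these is favoured by members that reached 10 FPKM in CncCRNAi only.

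The fold threshold of 3 cuts through a continuous range. The last genes inside it on the raised side were CG6733 at 3.05-fold, CG30108 at 3.06-fold, Jon74E at 3.21-fold, CG18180 at 3.23-fold and CG17930 at 3.43-fold. The first outside were MtnD at 2.99-fold, CG30280 at 2.85-fold, CG17192 at 2.84-fold, sick at 2.77-fold and CG10053 at 2.70-fold. On the lowered side, hzg at 3.02-fold, CG6465 at 3.06-fold, CG42364 at 3.07-fold, CG43218 at 3.15-fold and mira at 3.23-fold were just inside. Cdk1 at 2.90-fold, CG30094 at 2.88-fold, Traf4 at 2.88-fold, jumu at 2.87-fold and CG17028 at 2.87-fold lay just outside. mira and Cdk1, on either side of the line, thus had nearly equal folds.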

How the data were processed

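RNA was sequenced from FACS-sorted escargot-positive cells in 6 libraries, 1 per genotype. The authors aligned MiSeq read pairs by a Tuxedo pipeline, whose versions are not given in the sources used here, and deposited FPKM per gene. The deposited FPKM sum to between 639046 and 797524 per library and were used as they stand, with no further scaling. Groups were taken from the sample labels. With 1 library a group no test across libraries was possible, and no p-value was computed.

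The members and gene lists were chosen with earlier results of these data known. Protein-coding status and transcript length came from release 6 of the genome with annotation 115, which differs from the release the authors used, and it also gave the order and strand of neighbouring genes, with no coordinates printed. Of the 15603 identifiers, 14927 matched by identifier, 431 by symbol or synonym and 245 not at all, and 1 entry of the 40 gene lists had no match. Genes of at least 10 FPKM in either library numbered 5703, of which 196 matched as not protein-coding and 25 had no match.

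Low FPKM values fall on steps of 1 fragment, from which the depth of each library was estimated, with transcript length reduced by 155 nt. FPKM of genes of at least 200 nt were turned into estimated fragments, and the ratio of a gene was given an exact (Clopper-Pearson) 95% interval. A gene listed at 0 in a library was given no fold. The calculation was tested on simulated data.

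Named genes were the 12 largest rises and 12 largest falls, the 2 largest rises and falls of each list, genes that the study names, the 8 largest differences each way between both backgrounds, genes called oppositely in them, and the 5 genes inside and outside the threshold. Any other gene was chosen after its values were seen. These are further members of the lists, such as Hsp68, Hsp70Aa, Hsp83, MtnA, PCNA, Jon65Aiv and pros, and further called genes, such as Dscam4, Sdhaf3 and Ucp4B. Other pseudocounts, minimums, folds and a scaling of the median to 1 were tried, and w1118 or attP2 in place of CncCRNAi, the last of these chosen after seeing the data. Promoter motifs were planned and not analysed here. Python 3.11.15, numpy 2.4.6, pandas 2.3.3, scipy 1.17.1 and matplotlib 3.10.9 were used.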

Additional observations from a re-analysis of the deposited data

Results flagged for a closer look

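The genes that moved in opposite directions with and without the CncCRNAi label are listed by the difference of their log2 ratios, CncCRNAi+HttQ138 over CncCRNAi minus HttQ138 over w1118. Each was lowered in the CncCRNAi background and raised without it, so that the HttQ138 library was the lower one in the first pair and the higher one in the second. The difference was -8.02 for IM33, -6.37 for CG12057, -5.44 for CG31086, -5.04 for Mal-A1, -4.75 for CG4363, -4.15 for Diedel3, -3.50 for CG13315 and -3.32 for Damm. IM33 is at 0 FPKM in CncCRNAi+HttQ138, so its size depends on the pseudocount, and its log2 ratio in the CncCRNAi background was -4.60 with a pseudocount of 1, -7.87 with 0.1 and -2.50 with 5. None of these differences was tested, since each ratio has 1 library a side.

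CG12057 stood at 2.13 FPKM in CncCRNAi+HttQ138 and 12.6 FPKM in CncCRNAi, and at 43.0 FPKM in HttQ138 and 1.32 FPKM in w1118. CG31086 stood at 4.41 FPKM in CncCRNAi+HttQ138 and 21.8 FPKM in CncCRNAi, and at 50.9 FPKM in HttQ138 and 4.04 FPKM in w1118. CG4363 stood at 2.14 FPKM in CncCRNAi+HttQ138 and 17.4 FPKM in CncCRNAi, and at 23.7 FPKM in HttQ138 and 4.38 FPKM in w1118. In all 3 genes, as in the other 5, w1118 was the lowest or second lowest of the 4 libraries.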

How the results depend on the processing

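The number of raised genes was 28 and moved most with the thresholds and the library compared with. It was 82 at a fold of 2, 59 with a minimum of 5 FPKM, 13 with a minimum of 20 FPKM and 68 over all listed genes. With w1118 in place of CncCRNAi it was 188, and with attP2, which was also kept longer at 29 °C, 74. The number of lowered genes, 47, was 144 at a fold of 2, 74 with a minimum of 5 FPKM, 22 with a minimum of 20 FPKM and 77 over all listed genes. It was 70 with w1118 and 55 with attP2 in place of CncCRNAi. Folds of FPKM + 1 gave 24 raised and 40 lowered genes, scaling the median ratio to 1 gave 32 and 42, and asking for an interval that excludes 1 gave 25 and 45. Those w1118 and attP2 alternatives were chosen after seeing the data. Of the list medians, 9 changed sign with the median scaled to 1, such as glycolysis (-0.08 to 0.04) and the 19S proteasome (-0.02 to 0.10), 5 with a minimum of 1 FPKM, such as the enterocyte list (0.04 to -0.38), and none with another pseudocount. The digestive enzyme median of -1.58 was -1.04 with a pseudocount of 5 and -0.79 with a minimum of 1 FPKM, and the enteroendocrine median of -1.70 was -0.43 with that minimum. No paired analysis was possible because each group has 1 library, and no replicate could be left out. Depth limits the genes near 10 FPKM, where a short gene rests on few fragments.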

Other observations

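The following genes were chosen after their values were seen. Of the 886 members of at least 100 FPKM in either library, 13 were at least 2-fold higher in CncCRNAi+HttQ138, 4 of them raised, and 11 at least 2-fold lower, 5 of them lowered. Arc1, which encodes a capsid-forming protein related to retroviral Gag, had 205 FPKM in CncCRNAi+HttQ138 and 97.7 FPKM in CncCRNAi, and 74.6 FPKM in HttQ138 and 75.5 FPKM in w1118. scyl, an inhibitor of TOR signalling, had 180 FPKM in CncCRNAi+HttQ138 and 87.9 FPKM in CncCRNAi, and 127 FPKM in HttQ138 and 140 FPKM in w1118. Both were higher beside HttQ138 in the pair that carries the CncCRNAi label and not in the other, a difference that was not tested. trbl (tribbles), a pseudokinase that slows entry into mitosis, had 132 FPKM in CncCRNAi+HttQ138 and 283 FPKM in CncCRNAi, and 33.3 FPKM in HttQ138 and 29.5 FPKM in w1118, so that the libraries of the CncCRNAi label were the highest in the series.

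Genes of seminal fluid proteins annotated on the same strand as unc-104, a kinesin motor of axonal transport, were detected in these female gut cells. Whether they adjoin each other or unc-104 was not checked. unc-104 had 228 FPKM in CncCRNAi+HttQ138, 151 FPKM in CncCRNAi, 32.6 FPKM in HttQ138 and 233 FPKM in w1118. Acp53C14c had 12.2 FPKM in CncCRNAi+HttQ138, 19.1 FPKM in CncCRNAi, 0 FPKM in HttQ138 and 9.71 FPKM in w1118. Sfp53D had 13.1 FPKM in CncCRNAi+HttQ138, 8.62 FPKM in CncCRNAi, 0.760 FPKM in HttQ138 and 5.61 FPKM in w1118. HttQ138 was the lowest of the 4 libraries for all 3 genes. CG42392, which lies inside unc-104 on the same strand, had 14.0 FPKM in CncCRNAi+HttQ138, 6.96 FPKM in CncCRNAi, 0 FPKM in HttQ138 and 16.4 FPKM in w1118. FPKM of overlapping genes on 1 strand are uncertain.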
